A study of Mus musculus with 3 samples.

Results

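Antigen presentation by the major histocompatibility complex (MHC) was described here through 10 genes in tissue labelled mesenchyme of the mouse incisor: H2-K1, H2-D1, B2m, Tap1, Tap2, Psmb8 and Psmb9 of the class I pathway, and H2-Aa, H2-Ab1 and Cd74 of the class II pathway. The members were the rows of the deposited expression table that carry these gene symbols, and all 10 were found among 19381 listed genes. The selection rule itself uses no measured value. All 3 libraries came from 1 group, Gli1-CreER;Arid1afl/fl;Arid1bfl/fl mice, abbreviated DKO, whose floxed Arid1a and Arid1b genes encode subunits of the BAF chromatin remodelling complex. Mice received tamoxifen by intraperitoneal injection at 1.5 mg per 10 g body weight, at the age of 1 month per the design text, and the proximal incisor was collected 4 days later and digested. Total RNA was sequenced. The libraries are called replicates 1, 2 and 3. With no other group, no comparison of genotypes or treatments was possible, and every value below is a level in DKO tissue or a difference between DKO libraries. The labels do not say that the libraries came from separate animals, so their spread may be technical.

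Gli1-CreER acts in cells that express Gli1 once tamoxifen is given, and the tissue also holds cells that do not express it. The values are therefore from recombined and other cells together, and fewer cells of a type cannot be told apart from less RNA per cell. Arid1a had 136, 130 and 133 units in replicates 1, 2 and 3, and Arid1b had 50.5, 50.7 and 50.8 units. These are values over whole genes, so they do not check the deletion. Here a unit is 1 normalized count on the authors' scale, on which the upper quartile over genes was 44.7 in every library. The normalized values summed to 986401, 958773 and 966163 units, and the number of reads behind them is unknown. All 8 incisor mesenchyme markers had a mean of at least 10 units. The same mean was reached by 10388 of the 19381 genes, by 8 of 8 endothelial markers and by 7 of 8 dental epithelium markers. That count therefore does not single out mesenchyme. Among the mesenchyme markers Prrx1, a transcription factor of limb and craniofacial mesenchyme, had 559, 675 and 623 units. Epithelial RNA was present too: Krt14, a keratin of basal epithelium, had 123, 191 and 154 units, and the epithelial cadherin Cdh1 had 126, 181 and 150 units, whereas Gli1 had 45.7, 39.2 and 40.2 units.

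Class I molecules display peptides from inside the cell to CD8 T cells. The proteasome cuts cytosolic proteins, the TAP transporter carries the peptides into the endoplasmic reticulum, and there they bind a heavy chain paired with beta-2 microglobulin. In cells exposed to interferon, the subunits Psmb8, Psmb9 and Psmb10 take the place of the constitutive catalytic subunits and form the immunoproteasome. Class II molecules display peptides from endocytosed proteins to CD4 T cells, mainly on macrophages, dendritic cells and B cells. Their alpha and beta chains are assembled with the invariant chain Cd74, which keeps the groove blocked until it is degraded. The coactivator Nlrc5 acts on class I promoters and the coactivator Ciita on class II promoters.

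The promoters of 3 members are shown first because they show which of 4 promoter motifs lie before 2 class I genes and 1 class II gene. Entries of the RefSeq promoter table (GRCm38.p6, 250 bases before to 50 after each gene's start) were matched for 7 of the 10 members. The letters searched on both strands were GAAANNGAA, the core of the interferon-stimulated response element (ISRE), TTCNNNGAA, the gamma-activated sequence (GAS) of interferon gamma responses, CCAAT, the box bound by NF-Y, and GGGATTCCC, a kappa B site bound by NF-kappa B. Capitals mark the matches, and ATTGG is CCAAT read on the other strand. The stretches run 5′ to 3′ on the gene's strand up to the annotated transcript, at chr17:34000348-34000507 on the minus strand for H2-K1, chr2:122147527-122147685 on the plus strand for B2m and chr17:34287824-34287983 on the minus strand for H2-Aa.
H2-K1: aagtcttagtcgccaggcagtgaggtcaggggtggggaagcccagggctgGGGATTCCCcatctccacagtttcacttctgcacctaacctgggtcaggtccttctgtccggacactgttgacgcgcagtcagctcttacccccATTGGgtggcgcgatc
B2m: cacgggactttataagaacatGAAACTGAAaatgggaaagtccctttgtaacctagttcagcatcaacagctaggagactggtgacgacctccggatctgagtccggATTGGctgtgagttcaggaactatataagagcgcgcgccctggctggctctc
H2-Aa: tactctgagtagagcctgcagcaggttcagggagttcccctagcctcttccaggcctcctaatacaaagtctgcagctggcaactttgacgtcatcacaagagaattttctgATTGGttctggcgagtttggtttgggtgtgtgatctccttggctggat

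Shorter windows show the kappa B match of H2-D1, at chr17:35262914-35262943 on the plus strand, whose surroundings resemble those of the H2-K1 match, and the GAS match of Psmb8, at chr17:34198088-34198117 on the plus strand. Capitals mark the matched letters.
H2-D1: cccagggctgGGGATTCCCcatctcctcag
Psmb8: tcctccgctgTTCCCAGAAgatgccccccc

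Among the 7 matched members the CCAAT box was in the window of 6, the kappa B letters in 2, the ISRE core in 1 and the GAS letters in 1. The same letters were in the windows of 41.1%, 0.414%, 9.76% and 9.55% of the 27025 genes of the promoter table. The kappa B matches lay 110 to 102 bases before the start in H2-K1 and 170 to 162 bases before it in H2-D1. The ISRE core of B2m lay 139 to 131 bases before its start, and the GAS letters of Psmb8 lay 97 to 89 bases before its start. These distances are from the RefSeq starts, which for Psmb8 and H2-D1 lie inside the longer GENCODE spans given below, so the windows shown for those genes also lie inside these spans. Psmb9 and Tap1 are transcribed away from each other with 225 bases between their RefSeq starts, and a single CCAAT match lay in the windows of both. The RefSeq start of Psmb9 also lies inside its longer GENCODE span, and in GENCODE these genes share 212 exon bases. Among 24 matched genes of a list of interferon-stimulated genes, 17 held the ISRE core, 5 the GAS letters, 9 the CCAAT box and 0 the kappa B letters. A match is a description of letters and does not show that a factor binds there, and its absence says only that the letters are not in this window. The ISRE search took only GAAA before GAA. Read on the other strand, the H2-K1 stretch holds GAA before GAAA at the same spacing, close to its kappa B match. That order was not searched or counted in any gene. The ISRE counts therefore do not show that H2-K1 or another gene lacks such an element.

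Immunoproteasome subunits supply the peptides, and Psmb8 varied most of the 10 members. Psmb8, the inducible chymotrypsin-like subunit (chromosome 17, 34197721 to 34201454, plus strand, GENCODE M21 on GRCm38), had 30.2, 12.2 and 15.1 units in replicates 1, 2 and 3, a mean of 19.1 ± 9.66 (SD, n = 3). Replicate 1 was 2.47-fold higher than replicate 2 and 2.00-fold higher than replicate 3. Psmb9, the inducible counterpart of the caspase-like subunit (chromosome 17, 34181987 to 34187764, minus strand), had 7.43, 4.18 and 5.29 units, a mean of 5.63 ± 1.65 (SD, n = 3). It was the only member with a mean below 10 units. Psmb10, the inducible trypsin-like subunit and no member, had 17.2, 6.57 and 9.64 units. All 3 inducible subunits were highest in replicate 1 and lowest in replicate 2.

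The constitutive counterparts were lowest where the inducible subunits were highest. Psmb5, whose place Psmb8 takes, had 23.4, 32.4 and 31.9 units in replicates 1, 2 and 3. Psmb6, the counterpart of Psmb9, had 52.1, 58.2 and 53.2 units, and Psmb7, the counterpart of Psmb10, had 59.8, 67.1 and 64.6 units. Each of these 3 was lowest in replicate 1 and highest in replicate 2. The ratio of Psmb8 to Psmb5 was therefore 3.42-fold higher in replicate 1 than in replicate 2, that of Psmb9 to Psmb6 1.99-fold and that of Psmb10 to Psmb7 2.95-fold. Against replicate 3, the ratios in replicate 1 were 2.73-fold, 1.43-fold and 1.93-fold higher. Per kilobase of exon, Psmb8 made up 25.5%, 9.10% and 11.2% of the sum of Psmb8 and Psmb5 in replicates 1, 2 and 3. Divided by the longest coding transcript instead, those shares were 41.6%, 17.2% and 20.7%, so the share depends on the length used while the order of the libraries does not.

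**Figure D1:**
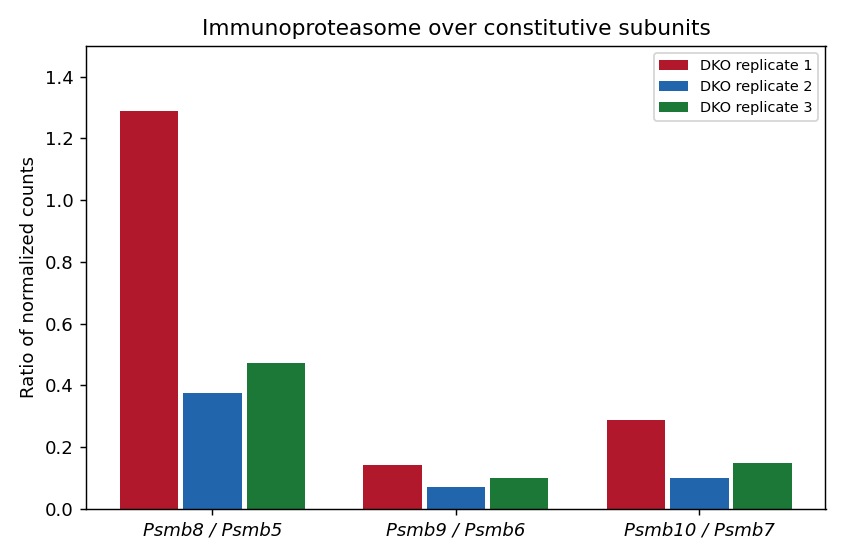
Inducible and constitutive catalytic proteasome subunits in the 3 DKO libraries; each bar is the ratio of the normalized counts of an inducible subunit and its constitutive counterpart in 1 library. All 3 ratios were highest in replicate 1, where Psmb8 over Psmb5 was 1.29, against 0.376 and 0.473 in replicates 2 and 3.

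Within each library the inducible subunits were set against their counterparts on the log2(value per kilobase of exon + 1) scale. The difference was -2.40 ± 0.83 for Psmb8 minus Psmb5, -3.58 ± 0.33 for Psmb9 minus Psmb6 and -1.47 ± 0.68 for Psmb10 minus Psmb7 (SD, n = 3 libraries). Each was negative in 3 of 3 libraries, and exact permutation of the signs over libraries (two-sided) put p at 0.25 for every pair. With 3 libraries that is the smallest p the test can give, and p adjusted over the 6 gene pairs compared was also 0.25. Divided by the longest coding transcript, the differences were -1.48, -3.77 and -2.65, so the sizes for Psmb8 and Psmb10 depend on the length used. With no division by length, Psmb8 minus Psmb5 was -0.67 and was positive in replicate 1, so its sign was no longer shared by the libraries.

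Peptide transport followed the same order of libraries. Tap1, a chain of the peptide transporter (chromosome 17, 34187553 to 34197225, plus strand), had 48.7, 23.2 and 28.1 units in replicates 1, 2 and 3, a mean of 33.3 ± 13.5 (SD, n = 3). Replicate 1 was 2.10-fold higher than replicate 2 and 1.73-fold higher than replicate 3. Tap2, the partner chain (chromosome 17, 34203527 to 34216321, plus strand), had 38.5, 22.8 and 32.1 units, a mean of 31.2 ± 7.88 (SD, n = 3). The ratio of Tap1 to Tap2 was 1.26, 1.02 and 0.875, so the chains did not keep a fixed proportion. Per kilobase of exon, Tap1 minus Tap2 was -0.41 ± 0.23 in log2 (SD, n = 3 libraries; exact sign-flip permutation p = 0.25, also after adjustment), but its sign turned with the length used, to 0.25 per kilobase of the longest coding transcript and 0.055 with no division. Which chain was more abundant is therefore not settled by these values.

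Heavy chains and beta-2 microglobulin varied less. H2-K1, a classical heavy chain (chromosome 17, 33996017 to 34000347, minus strand), had 90.1, 64.3 and 93.4 units in replicates 1, 2 and 3, a mean of 82.6 ± 15.9 (SD, n = 3). H2-D1, the other classical heavy chain measured (chromosome 17, 35262730 to 35267499, plus strand), had 145, 101 and 135 units, a mean of 127 ± 23.3 (SD, n = 3). B2m, the light chain shared by the class I heavy chains (chromosome 2, 122147686 to 122153083, plus strand), had 429, 295 and 348 units, a mean of 357 ± 67.5 (SD, n = 3). H2-K1 was the 1 member highest in replicate 3, where it stood 1.45-fold above replicate 2, and its values in replicates 1 and 3 differed by 0.05 in log2. B2m ranked 313 among the 19381 genes by mean value, above 98.4% of them.

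H2-K1 was lower than H2-D1 in 3 of 3 libraries, by -0.79 ± 0.08 in log2 per kilobase of exon (SD, n = 3 libraries; exact sign-flip permutation p = 0.25, also after adjustment). Per kilobase of the longest coding transcript the difference was -0.24. The ratio of H2-K1 to H2-D1 stayed between 0.620 and 0.691 over the libraries. Close relatives limit these values, since 9.63% of the 50-base stretches of H2-K1 transcripts and 12.8% of those of H2-D1 also occur in transcripts of other genes, with H2-Q10 and H2-Q1 first among them. That share was at most 0.655% in the other 8 members. The strain, and with it the H2 haplotype, is not given in the sources used here, and reads of another haplotype could align differently to the reference.

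Class II genes were also lowest in replicate 2, and H2-Ab1 and Cd74 had replicates 1 and 3 close to each other. H2-Aa, the alpha chain (chromosome 17, 34282744 to 34287823, minus strand), had 62.4, 39.3 and 52.9 units in replicates 1, 2 and 3, a mean of 51.5 ± 11.6 (SD, n = 3). H2-Ab1, the beta chain (chromosome 17, 34257689 to 34269419, plus strand), had 35.3, 22.005 and 34.3 units, a mean of 30.5 ± 7.42 (SD, n = 3). Cd74, the invariant chain (chromosome 18, 60803848 to 60812652, plus strand), had 131, 78.4 and 124 units, a mean of 111 ± 28.5 (SD, n = 3). The differences between replicates 1 and 3 had a median of 0.08 in log2 over the 3 genes, against 0.30 over the 7 class I members. The classes overlapped in this, since the difference was 0.24 for H2-Aa, against -0.05 for H2-K1 and 0.10 for H2-D1. H2-Ab1 minus H2-Aa was -0.18 ± 0.11 in log2 per kilobase of exon (SD, n = 3 libraries; exact sign-flip permutation p = 0.25, also after adjustment) and -0.84 per kilobase of the longest coding transcript, negative in 3 of 3 libraries in the exon-based values.

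**Figure D2:**
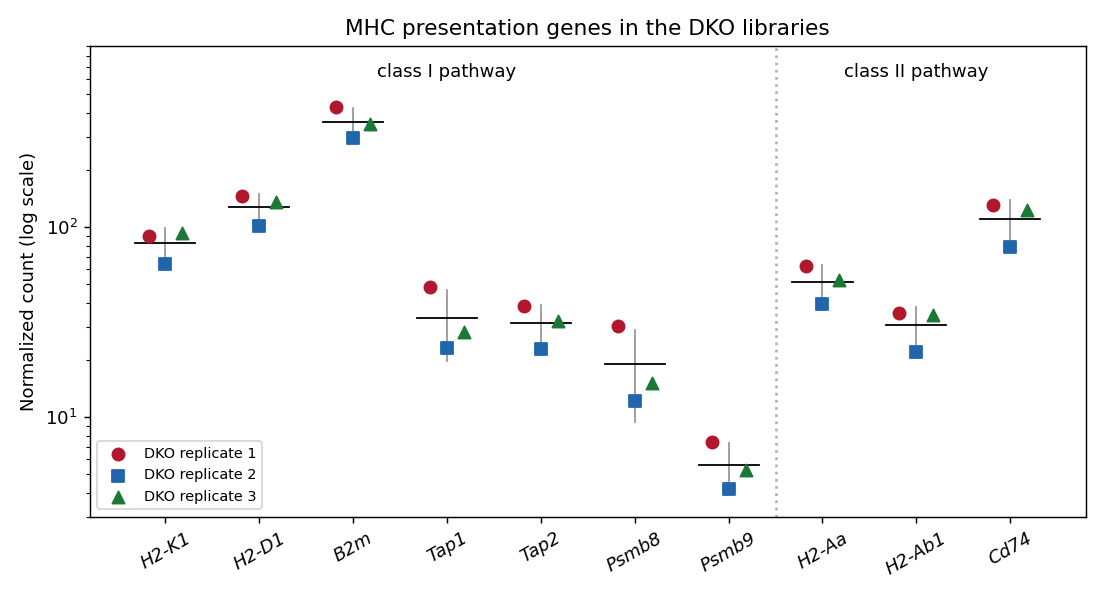
Normalized value of each of the 10 genes in DKO replicates 1, 2 and 3, with the mean (horizontal line) and SD (vertical line); the value axis is logarithmic. Each gene was lowest in replicate 2, and 9 of 10 were highest in replicate 1, H2-K1 being highest in replicate 3.

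Per kilobase of exon the order of mean levels was B2m, Cd74, H2-D1, H2-K1, H2-Aa, H2-Ab1, Tap2, Tap1, Psmb8 and Psmb9. B2m had 415 ± 78.5 units per kilobase and Cd74 66.1 ± 17.0, and Psmb9 was lowest with 1.54 ± 0.452 (SD, n = 3). The ranges over libraries did not overlap between B2m and Cd74, H2-D1 and H2-K1, H2-K1 and H2-Aa, or Psmb8 and Psmb9. The other neighbours in the order overlapped. Within libraries, each gene was above the next in 3 of 3 libraries, except Tap1, which was above Psmb8 in 2. With the longest coding transcript as the length, Psmb8 and Tap2 changed places around Tap1. The ranges of H2-D1, H2-K1 and H2-Aa then overlapped from each to the next, though each was above the next in 3 of 3 libraries. B2m stayed first and Psmb9 last with either length.

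**Figure D3:**
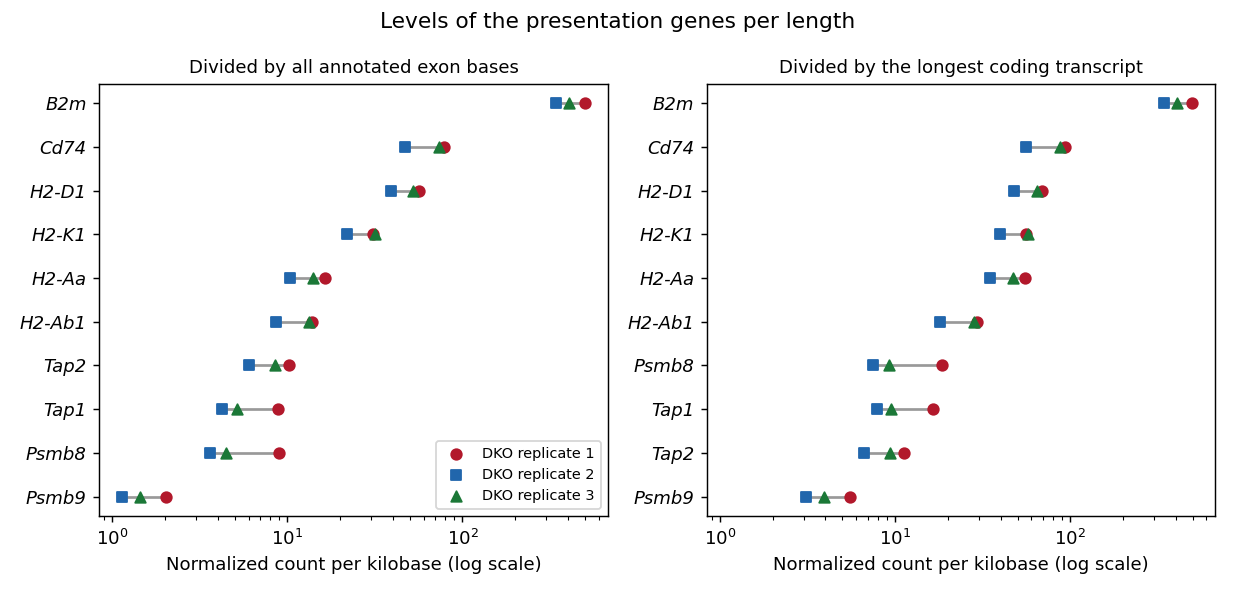
Normalized count per kilobase of each of the 10 genes on logarithmic axes, divided by all annotated exon bases (left) or by the longest coding transcript (right), with the 3 DKO libraries as points joined by a line. B2m lay above and Psmb9 below the other genes in both panels, with exon-based means of 415 and 1.54.

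As a group, the class I and class II genes largely shared an order of libraries. Their summed share of all normalized values was 0.103%, 0.0691% and 0.0898% in replicates 1, 2 and 3. The 7 class I members summed to 789, 522 and 657 units and the 3 class II members to 229, 140 and 211 units. The ratio of these sums was 3.45, 3.74 and 3.12. All 10 members were lowest in replicate 2, as were 27.8% of the 10388 genes with a mean of at least 10 units. Of the 10 members, 9 were highest in replicate 1, against 31.2% of those genes, and the same 9 had replicate 1 highest and replicate 2 lowest, against 13.8%. A log2 range of at least 1 between the highest and lowest library was reached by 2 members, Tap1 and Psmb8, against 1.68% of those genes. All members but Psmb9 are among the 10388. Without replicate 1 or without replicate 2, neither of them kept a range of at least 1. These shares treat genes singly, and the 10 members are not independent of each other. The counts of the highest and lowest library were chosen with earlier results of these data known.

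The median difference between replicates 1 and 2 was 0.68 in log2 over the members, against -0.02 over all genes with a mean of at least 10 units. The coefficient of variation ran between 18.3% for H2-D1 and 50.4% for Psmb8, against a median of 7.20% over all such genes. In deviations from each gene's own mean, the class I medians were 0.33, -0.34 and -0.02 in replicates 1, 2 and 3, a range of 0.66. The class II medians were 0.27, -0.43 and 0.19, a range of 0.70. Replicate 2 decides the class II range, which was 0.085 without it. Without replicate 1 the class I range was 0.28, and without replicate 2 it was 0.30.

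Libraries also differed in genes that do not present antigen, and these values stand beside the counts above. Mitochondrial and ribosomal RNA genes held 12.4% of all values in replicate 1, 9.12% in replicate 2 and 8.82% in replicate 3. Of 33 interferon-stimulated genes outside presentation, 27 had a mean of at least 10 units, and all 27 were highest in replicate 1. In 26 of the 27 the log2 range was at least 1. Some of the 27 passed the filter only through replicate 1, such as Isg15 with 47.5, 8.57 and 7.41 units. Both counts are therefore tilted towards replicate 1. Ifit1, an RNA-binding antiviral protein, had 222, 38.7 and 35.6 units, and Irf7, a transcription factor of the interferon response, had 115, 18.3 and 30.5 units. The 33 genes summed to 2987, 798 and 806 units. Replicate 2 was lowest for 11 of the 27 and replicate 3 for 16, so replicates 2 and 3 were near each other for these genes while the class II members separated them. The part of these genes in the members' differences was not tested.

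**Figure D4:**
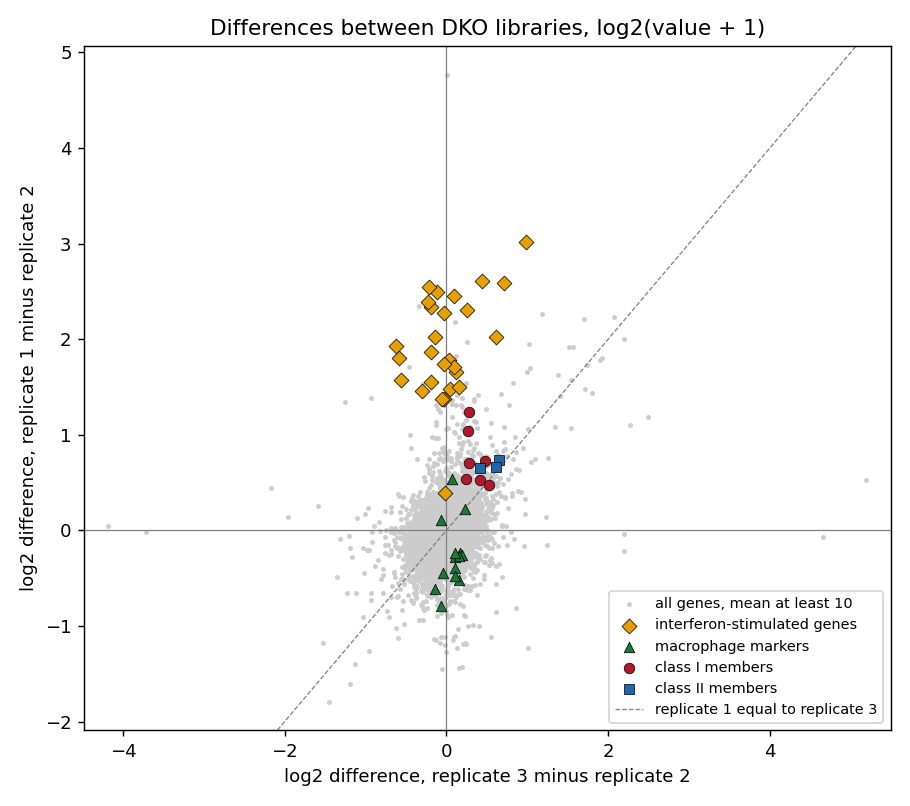
Difference between DKO replicates 1 and 2 against the difference between replicates 3 and 2, both in log2(value + 1), for all genes with a mean of at least 10 units and for the named lists. Most interferon-stimulated genes lay high on the vertical axis near 0 on the horizontal one, while the members lay above 0 on both axes, with medians of 0.68 and 0.42.

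Ifnar1 and Ifngr1, receptor chains for type I interferons and interferon gamma, had 103, 128 and 131 units and 92.5, 93.4 and 109 units in replicates 1, 2 and 3. The kinase Jak1 had 201, 196 and 211 units. None of these 3 was highest in replicate 1, but the kinases Jak2, with 99.0, 88.4 and 88.4 units, and Tyk2, with 23.8, 22.9 and 23.1 units, were. Downstream, the transcription factor Stat2 had 91.2, 41.0 and 37.3 units. Irf9, its DNA-binding partner in the type I interferon response, had 116, 54.4 and 55.1 units. Both were highest in replicate 1, with a log2 range of at least 1. The interferon genes Ifnb1, Ifna4, Ifng and Ifnl3 were not analysed here.

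Factors acting on MHC promoters did not vary alike. Nlrc5, the class I coactivator, had 27.0, 4.73 and 4.50 units. Among 11 list genes with a mean of at least 10 units, it alone had a log2 range of at least 1. Its mean of 12.1 units passed that filter only through replicate 1, so the filter favours this range. Ciita, the class II coactivator, had 3.55, 2.23 and 3.77 units, a mean below 10 units, with replicate 2 lowest. Rfx5, a subunit of the RFX complex that binds the X box, had 53.0, 53.0 and 51.6 units. Irf1, an interferon-induced activator of class I genes, had 26.4, 24.01 and 23.1 units. Nlrc5 thus had replicates 2 and 3 close together, Ciita had replicates 1 and 3 close together, and Rfx5 and Irf1 differed little over the 3 libraries.

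Other genes of the class I pathway were described from lists. Of 7 further class I heavy chains and relatives with a mean of at least 10 units, 5 were highest in replicate 1, 5 were lowest in replicate 2 and 3 had a log2 range of at least 1. These 3 were the nonclassical chains H2-T23, with 80.8, 29.7 and 32.6 units, H2-T22, with 67.4, 27.9 and 32.5 units, and H2-Q4, with 28.1, 10.4 and 13.4 units. Their close sequence relatives could share reads with them. Fcgrt, the neonatal Fc receptor chain, had 144, 146 and 171 units and was highest in replicate 3. Mr1, which presents vitamin B metabolites, had 61.0, 54.9 and 56.3 units, the order of B2m with a log2 range of 0.149. Both pair with beta-2 microglobulin.

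Of 6 further peptide loading genes, 3 were highest in replicate 1 and 3 in replicate 2, and none of the 6 reached a log2 range of 1. Tapbp, which bridges TAP and the heavy chain, had 228, 171 and 194 units in replicates 1, 2 and 3, the order of the members. The general chaperones of the endoplasmic reticulum had the reverse order, with 828, 1156 and 972 units for Calr, 608, 760 and 666 for Canx and 880, 1136 and 975 for Pdia3. The proteasome activator subunits Psme1 and Psme2 had 75.9, 52.8 and 51.8 units and 72.1, 46.6 and 46.2 units. Of 15 constitutive proteasome genes, 1 was highest in replicate 1 and 11 were highest in replicate 2, and none had a log2 range of at least 1. Among all 10388 genes with a mean of at least 10 units, 3242 were highest in replicate 1 and 3553 in replicate 2.

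Other class II genes were described from lists. H2-Eb1, a further beta chain, had 44.7, 29.2 and 40.1 units in replicates 1, 2 and 3, and H2-DMb1, a chain of the peptide exchange factor, had 20.4, 17.4 and 17.8 units. These were the 2 list genes beside the members with a mean of at least 10 units, and both had replicate 1 highest and replicate 2 lowest. Below that mean, H2-DMa, the partner chain of H2-DMb1, had 8.56, 7.50 and 8.60 units and was highest in replicate 3. Of 6 pathway proteases, 5 were highest in replicate 3, against 3593 of the 10388 genes with a mean of at least 10 units. Ctss, the cathepsin that trims the invariant chain, had 99.1, 97.5 and 102 units, and Ifi30, a thiol reductase of lysosomes, had 20.6, 24.9 and 32.1 units.

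Cells that carry class II molecules were followed through marker lists. The 14 macrophage markers summed to 1203, 1532 and 1626 units in replicates 1, 2 and 3, and 11 of the 14 were lowest in replicate 1. Of the 10388 genes with a mean of at least 10 units, 3953 were lowest in replicate 1. Csf1r, the macrophage growth factor receptor, had 173, 228 and 246 units. Fcgr1, an Fc receptor of macrophages, had 27.1, 18.4 and 19.3 units and Aif1 had 18.6, 17.1 and 16.3 units, the 2 macrophage markers that were highest in replicate 1. Mpeg1 had 117.2, 100.2 and 117.3 units, and like Fcgr1 it was lowest in replicate 2. The 3 pan-leukocyte markers summed to 121, 154 and 161 units. The macrophage sum had replicate 1 lowest, whereas the class II sum had replicate 2 lowest. Of 9 dendritic cell markers, 8 were listed, and they summed to 11.5, 12.6 and 15.0 units with none at a mean of 10 units. The 2 listed B cell markers summed to 1.66, 2.14 and 2.05 units and the 5 listed T and NK cell markers to 2.01, 1.37 and 1.58 units. The smallest value of any listed gene was 0.0291, 0.0275 and 0.0233 units in replicates 1, 2 and 3. No listed gene could therefore be at 0, and values above 0 do not show that these cells were present. Klrb1c and Gzma, of the T and NK cell list, were at that smallest value in replicate 2. The 8 dental epithelium markers summed to 569, 790 and 557 units and the 8 endothelial markers to 362, 371 and 487 units. The part of cell makeup in the members' differences was not tested.

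**Figure D5:**
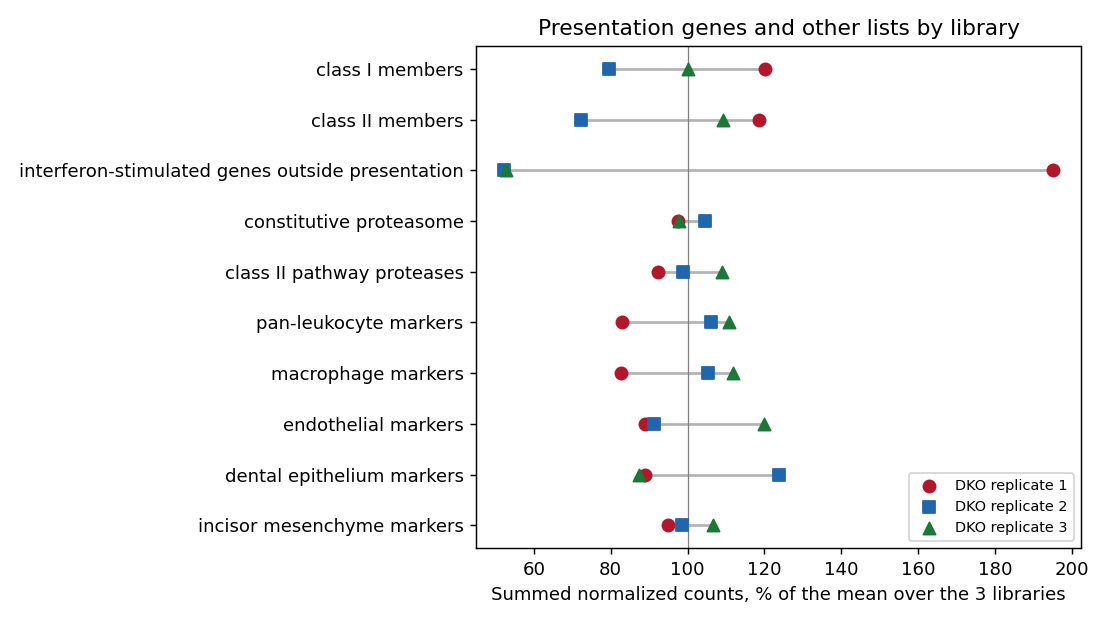
Summed value of each gene list in DKO replicates 1, 2 and 3 as a percent of its mean over the libraries. Class I members stood at 120%, 79.6% and 100.1%, class II members at 118.5%, 72.4% and 109.1%, interferon-stimulated genes at 195%, 52.2% and 52.7%, and macrophage markers at 82.8%, 105.4% and 111.8%.

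Position on chromosome 17 was set beside the order of libraries, since 8 of the 10 members lie between H2-K1 and H2-D1. The table lists 80 genes in this span, 35 of them with a mean of at least 10 units and no member. Of these 35, 5 or 14.3% had replicate 1 highest and replicate 2 lowest, and 17 or 48.6% were lowest in replicate 2. The 5 were H2-Eb1, H2-DMb1, Col11a2, Pbx2 and Zbtb12. Col11a2, a collagen chain of cartilage, had 422, 141 and 412 units and was the 1 gene of the 35 with a log2 range of at least 1. B2m and Cd74 lie on chromosomes 2 and 18 and had the same order of libraries as the members on chromosome 17 other than H2-K1.

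Annotated overlaps touch some values. Tap1 and Psmb9 share 212 exon bases on opposite strands, and Psmb8 shares 498 exon bases with Gm20496 on the opposite strand. Tap2 shares 533 exon bases with Gm15821 and 165 with Gm20496, both on the opposite strand. Whether counting used strand is not given in the sources used here, so reads over these bases cannot be told apart between the partners. B2m lies within the span of Patl2 with no exon base in common.

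The genes with the pattern most like 3 members were found by the distance between the 3 deviations of log2(value + 1) from the gene's mean. Nearest to B2m were Fhl1, Nt5c2 and Prkca, at distances of 0.014, 0.016 and 0.023, and 15 genes lay within 0.05. Nearest to Tap1 were Extl1, Arrdc4 and Kcnn3, at 0.029, 0.032 and 0.073, with Psmb8 the 21st gene at 0.158. Nearest to Cd74 were Dcn, Nell1 and Sdc3, at 0.017, 0.028 and 0.050, and H2-Ab1 was the 4th gene at 0.053. Over only 3 libraries many genes can share a pattern.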

How the data were processed

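Per the labels, RNA was isolated with the RNeasy Micro kit from 3 DKO libraries, and libraries were made and sequenced in a core facility. TopHat2 2.0.8 and mm10 are named in the submitters' processing notes. Of the counting tool and the steps between alignment and table, the sources used here say nothing. The deposited values are normalized counts, a signal with the same upper quartile in every library. The authors' scaling was not undone, since under 95% of low values came out within 0.1 of a whole multiple of the smallest value (82.4% to 82.6%), so no count model was used and depth is unknown.

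Columns were matched to libraries by name. Values were analysed as deposited or as log2(value + 1), with Python 3.11.15, pandas 2.3.3 and numpy 2.4.6. Lengths and 1-based coordinates are from GENCODE M21, where the start equals the deposited start for 18858 of 18985 genes matched by symbol. Level is the mean ± SD over 3 libraries. Background shares use the 10388 genes with a mean of at least 10 units. Within-library differences of 6 gene pairs were tested by exact permutation of signs, two-sided, with Benjamini-Hochberg adjustment. Shared sequence was counted over 50-base stretches of annotated transcripts. Scripts were tested on simulated data. All 10 members were named, list genes were given by value or count (1 list gene is not reported here), and the 3 nearest genes were named for B2m, Tap1 and Cd74. The members, the lists and the counts of the highest and lowest library were chosen with earlier results of these data known. Alternatives changed the pseudocount, the scaling, the filter, the length and the libraries included.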

Additional observations from a re-analysis of the deposited data

How the results depend on the processing

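No comparison between groups was possible because there is a single group, and the only pairing was of genes within a library. The number of members with a log2 range of at least 1, which was 2, was 0 with a pseudocount of 10, against 0.963% of the background genes. With libraries rescaled to equal totals it was 1, against 1.69%. When only genes with a mean of at least 100 units were used, which left 3 members, it was 0, against 0.903%. Leaving out each library in turn gave 0 to 2 members, against 0.51% to 1.27% of the background genes. The number of members highest in replicate 1 was 3 of those 3 with the same filter, against 23.8% of the genes it kept. It was 9 without replicate 2, against 47.9% of the background genes, and 10 without replicate 3, against 45.2%. With either rescaling of library totals, 10 members were lowest in replicate 2 and 9 highest in replicate 1. With equal totals, the background shares were 22.1% lowest in replicate 2 and 23.7% highest in replicate 1. With equal totals after removal of ribosomal RNA and mitochondrial genes, they were 27.4% and 35.4%. The class I range of 0.66 was 0.28 to 0.70 and the class II range of 0.70 was 0.085 to 0.66 without each library in turn. Tap1 minus Tap2 turned to 0.055 with no division by length and 0.25 with the longest coding transcript; the mean of the other 5 pairs kept its sign under every alternative run, but Psmb8 minus Psmb5 shrank to -0.67 with no division by length (exact permutation p = 0.5), where replicate 1 was positive. The 3 libraries cannot give an exact p below 0.25, and unknown depth leaves the counting error of low values such as Psmb9 unmeasured. Division by the longest coding transcript, the count lowest in replicate 2 under rescaling, and the highest library among those left were alternatives chosen after seeing the data.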
